A study of Mus musculus with 24 samples.

Results

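The genes described here are 38 genes of the mitotic cell cycle, 15 that act in S phase and 23 that act in mitosis, picked by name. All 38 were found by symbol among the 23871 genes of the PAPERCLIP tables and by Ensembl identifier among the 47069 identifiers of the RNA-seq tables. cTag-PAPERCLIP pulls down mRNA through the poly(A)-binding protein, which carries a GFP tag and is tagged only in Cre-expressing cells. It was run on whole brain of Cx3cr1-Cre; Ctag-PABP mice, with 2 untreated libraries, 3 after PBS and 3 after lipopolysaccharide (LPS), a component of the bacterial wall that sets off innate immune responses. RNA-seq was run on microglia that CD11b beads had selected from brains of adult wild-type C57BL/6 mice, with 3 PBS libraries and 3 LPS libraries; LPS at 1 mg/kg, or PBS, was injected into the peritoneum once a day on 4 days. Brains went 2 to a dissociation tube, so an RNA-seq library can pool animals. Other libraries came from cortex of Gfap-Cre, Gad2-Cre and Camk2a-Cre mice with the same Ctag-PABP allele (2 each), from Ptbp2-KO cortex at E18.5 (3) and from CL57/B6J liver, whose label names neither a Cre line nor a tag (1). For the PAPERCLIP mice, dose, timing and age were not stated in the labels used here. Cx3cr1 is active in microglia and also in some monocytes and macrophages, and CD11b is carried by other myeloid cells too, so neither assay is limited to microglia by its design.

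Cells that enter the cycle transcribe these genes in successive waves. An earlier wave, driven by E2F factors that are released from pocket proteins, supplies the helicase, nucleotide and licensing factors for DNA synthesis. A later wave, driven through the MuvB complex with B-MYB and FOXM1 at CHR elements, supplies the cyclins, kinases and spindle proteins of mitosis. Promoters of the later wave often hold CCAAT boxes too. Microglia of the adult brain renew slowly and are known to divide more after injury or inflammation.

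The promoters of the members are shown because these waves are read from promoter elements and because the members of each phase were measured together. RefSeq windows of 300 bases (assembly GRCm38.p6, 250 bases before to 50 after the start site) matched 33 of the 38 members. They were searched on both strands for E2F sites (TTTGGCGC, TTTCCCGC, TTTCGCGC or TTTGCCGC), for the CHR element TTTGAA and for CCAAT; neighbouring matches can overlap. The first 275 bases, which end 25 bases after the start site, are printed 5′ to 3′ on the gene's strand with matches in capitals; TTCAAA and ATTGG are the CHR and CCAAT letters on the opposite strand. Rrm2, Uhrf1, Ccnb2 and Ube2c had the largest RNA-seq changes of their phase among members tested by edgeR that have a window, and Uhrf1 has 2 windows. Mcm5 and Top2a were chosen after their matches were seen.
Rrm2, chr12:24708004-24708278, plus strand: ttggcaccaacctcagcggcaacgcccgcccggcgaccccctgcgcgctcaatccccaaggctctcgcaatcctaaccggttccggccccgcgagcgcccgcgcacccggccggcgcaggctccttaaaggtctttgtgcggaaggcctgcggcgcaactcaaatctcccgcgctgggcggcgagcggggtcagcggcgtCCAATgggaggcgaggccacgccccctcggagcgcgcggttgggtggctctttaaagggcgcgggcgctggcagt
Uhrf1, chr17:56303087-56303361, plus strand: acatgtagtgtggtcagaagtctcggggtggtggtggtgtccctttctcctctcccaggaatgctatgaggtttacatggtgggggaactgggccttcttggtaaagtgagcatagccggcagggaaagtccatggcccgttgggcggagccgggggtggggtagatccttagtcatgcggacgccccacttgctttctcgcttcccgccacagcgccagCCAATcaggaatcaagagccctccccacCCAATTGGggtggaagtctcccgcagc
Uhrf1, chr17:56304063-56304337, plus strand: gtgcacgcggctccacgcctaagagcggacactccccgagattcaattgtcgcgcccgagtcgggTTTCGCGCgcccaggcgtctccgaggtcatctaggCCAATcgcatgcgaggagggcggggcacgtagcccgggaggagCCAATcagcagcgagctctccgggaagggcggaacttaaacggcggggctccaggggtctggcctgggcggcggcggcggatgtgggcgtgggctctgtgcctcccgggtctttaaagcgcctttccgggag
Mcm5, chr8:75109259-75109533, plus strand: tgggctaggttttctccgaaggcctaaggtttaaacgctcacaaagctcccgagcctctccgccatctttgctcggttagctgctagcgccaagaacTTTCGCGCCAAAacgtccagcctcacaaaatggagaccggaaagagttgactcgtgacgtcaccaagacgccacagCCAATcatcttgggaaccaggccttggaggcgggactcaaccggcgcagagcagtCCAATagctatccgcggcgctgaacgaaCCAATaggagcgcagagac
Ccnb2, chr9:70421530-70421804, minus strand: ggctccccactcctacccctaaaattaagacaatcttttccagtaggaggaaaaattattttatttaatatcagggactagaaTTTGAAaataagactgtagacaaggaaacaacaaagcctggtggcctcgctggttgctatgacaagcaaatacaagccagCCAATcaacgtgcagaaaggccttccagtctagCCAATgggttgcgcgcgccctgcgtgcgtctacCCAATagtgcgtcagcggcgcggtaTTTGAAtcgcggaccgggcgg
Ube2c, chr2:164769679-164769953, plus strand: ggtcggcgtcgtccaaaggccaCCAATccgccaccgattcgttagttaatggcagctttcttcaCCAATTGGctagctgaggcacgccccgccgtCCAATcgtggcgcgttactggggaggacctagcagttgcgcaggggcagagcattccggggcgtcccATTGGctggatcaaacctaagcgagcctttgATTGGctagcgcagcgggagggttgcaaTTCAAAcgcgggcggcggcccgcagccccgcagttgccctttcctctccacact
Top2a, chr11:99024165-99024439, minus strand: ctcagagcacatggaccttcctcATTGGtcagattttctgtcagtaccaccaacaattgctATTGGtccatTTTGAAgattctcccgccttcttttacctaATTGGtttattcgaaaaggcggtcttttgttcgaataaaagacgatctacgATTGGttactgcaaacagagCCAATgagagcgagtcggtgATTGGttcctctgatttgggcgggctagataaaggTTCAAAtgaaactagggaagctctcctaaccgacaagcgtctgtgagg

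In these windows the Mcm5 promoter held 2 overlapping E2F matches, the first of which starts at base -153 from the start site, and the Ccnb2, Ube2c and Top2a promoters held CHR matches near the start site, at bases 5, -29 and -23. Over all members with a window, CHR letters were in 15 of 20 mitosis windows (75%) and in 1 of 16 S phase windows (6.25%). They were in 17.9% of all 32851 promoter windows and in 11.7% of the 10504 windows of genes tested in the microglial RNA-seq. E2F letters were in 7 of 16 S phase windows (43.8%) and in 1 of 20 mitosis windows (5%), against 2.26% of all windows and 3.97% of the windows of tested genes. CCAAT was common to both phases, in 11 S phase and 18 mitosis windows, and was in 37.4% of all windows. The Rrm2 window held CCAAT and neither other motif. A match describes letters in a window and is not a bound site.

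Library totals were 154959 and 133456 counts in untreated, 266330 to 337770 in PBS and 679115 to 1041245 in LPS Cx3cr1-Cre PAPERCLIP, and 1250170 to 2133407 in microglial RNA-seq, so the PAPERCLIP LPS libraries were deeper than their controls. Microglia markers were abundant in both assays: 10 of 10 had counts in each library, and their sum was 39066 to 39548 CPM (counts scaled to the library total) in PBS and 23304 to 29114 CPM in LPS RNA-seq. PAPERCLIP PBS replicate 3 stood apart, with 1895 CPM of hepatocyte markers (11.3 CPM at most in the other PBS libraries) and 2940 CPM of neuron markers (598 CPM at most). RNA-seq PBS replicate 3 held 1384 CPM of neutrophil markers against 134 and 284 CPM in the other PBS libraries. Replicate 3 files of both treatments also carry another name prefix than replicates 1 and 2, and counts without that replicate are given beside the results.

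Summed over the members of a phase, both assays were higher after LPS in every library. In RNA-seq the S phase sum was 231, 213 and 261 CPM after PBS and 363, 659 and 356 CPM after LPS, and the mitosis sum was 65.8, 72.6 and 114 CPM after PBS and 769, 1371 and 395 CPM after LPS (replicates 1, 2 and 3). In PAPERCLIP the S phase sum was 188, 139 and 231 CPM after PBS and 1271, 462 and 451 CPM after LPS, and the mitosis sum was 65.2, 48.8 and 77.0 CPM after PBS and 2165, 437 and 672 CPM after LPS. The groups did not overlap for either phase in either assay, and the spread within LPS was wide, with RNA-seq LPS replicate 2 and PAPERCLIP LPS replicate 1 the highest. In bulk libraries more cycling cells and more of these mRNAs per cell cannot be told apart.

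**Figure D1:**
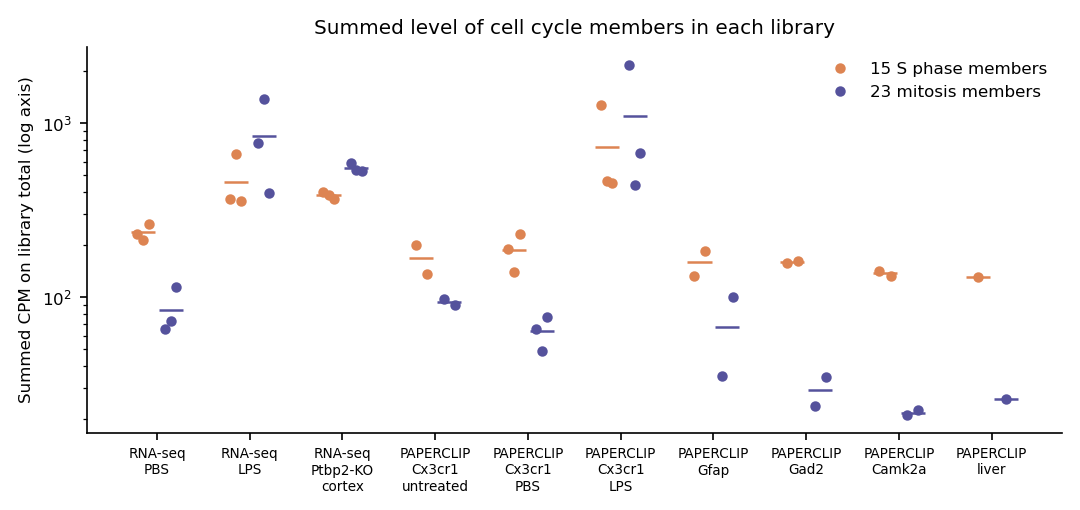
Summed CPM (on the library total, log axis) of the 15 S phase and 23 mitosis members in each library, by group. Points are libraries and short bars are group means; the LPS libraries of both assays lie above all PBS libraries of the same assay.

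In RNA-seq of isolated microglia the mean of all 38 members was higher after LPS than after PBS. For 35 of the 38 the lowest LPS library lay above the highest PBS library (12 of 15 S phase, 23 of 23 mitosis members), against 22.1% of the 10267 genes tested, which include 32 of the 38. edgeR tested 32 members; 29 rose at an adjusted p below 0.05, none fell and 3 missed the threshold (no tested member had a negative change), while 15.9% of all genes tested rose and 10.4% fell (26.4% in all; groups lay apart and lower for 18.6%). Of the 32, 17 passed the count filter through the LPS libraries alone (no PBS library above 6.09 CPM), 15 of them mitosis members. All 17 rose, so that count was partly fixed by the filter. Of the other 15, 12 rose (8 of 11 S phase, 4 of 4 mitosis), but some of these also needed LPS libraries to pass. Every PBS library was above the cutoff for 12 members, of which 10 rose (7 of 9 S phase, 3 of 3 mitosis). The 6 members not tested for low counts were Ccne1, Cdc6, Birc5, Aurka, Aurkb and Cdc20; their LPS libraries all lay above their PBS libraries. Over members with a PBS count, tested or not, the median ratio of pooled counts was 2.59 for 14 S phase and 13 for 23 mitosis members, while the median log2 change over all genes tested was -0.02. LPS replicate 2 was the highest library for all 38 members and LPS replicate 3 the lowest LPS library for 30. Without LPS replicate 2, 23 of 29 members tested rose, and the pooled ratio was lower by more than 1.5 times for 17 of 37 (Mki67 7.13 in place of 11.3, Rrm2 7.11 in place of 10.8); without replicate 3 of both groups, 33 of 35 did.

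The MCM helicase, 6 subunits that encircle and unwind DNA, rose in 5 of 6 subunits. Mcm6 (chr1:128331575-128359705) gave 14.3, 19.4 and 20.7 normalised CPM after PBS and 39.6, 72.7 and 36.0 after LPS, a log2 change of 1.5 (SE 0.28, adjusted p = 0.00201). Mcm2, Mcm4, Mcm5 and Mcm7 changed by 1.33, 1.34, 1.73 and 1.06 on the log2 scale (SE 0.25 to 0.37), with adjusted p of 0.0212, 0.00224, 0.00443 and 0.0143, and none of their groups overlapped. LPS libraries of these 5 subunits thus all lay above the PBS libraries. Mcm3 was the exception, with 57.3, 41.9 and 63.7 normalised CPM after PBS and 59.7, 90.7 and 65.3 after LPS (log2 0.41, SE 0.18, adjusted p = 0.129, unadjusted p = 0.0482); its groups overlapped. Without replicate 3 of both groups Mcm3 passed the threshold, with an adjusted p of 0.0114. Pcna, the sliding clamp of DNA polymerases, had 54.4, 52.0 and 42.4 normalised CPM after PBS and 49.3, 81.0 and 51.9 after LPS (log2 0.33, SE 0.19, adjusted p = 0.247). Its groups overlapped too, and without replicate 3 of both groups its adjusted p was 0.179. The calls of Mcm2, Mcm7 and Rrm1 were lost without PBS replicate 1, PBS replicate 2 or LPS replicate 2, with adjusted p up to 0.152, 0.0946 and 0.0772.

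Of 4 genes that supply deoxynucleotides, all had a higher mean after LPS, and Rrm2, Rrm1 and Tk1 but not Tyms passed the threshold. Rrm2 (chr12:24708254-24714146), the regulated small subunit of ribonucleotide reductase, went from 1.98, 1.55 and 2.72 normalised CPM after PBS to 19.5, 33.2 and 10.1 after LPS (log2 3.32, SE 0.50, adjusted p = 0.000439). Its partner Rrm1 changed by 1.08 (SE 0.28, adjusted p = 0.0149) from a PBS mean of 28.3 normalised CPM, and Tk1, thymidine kinase, by 1.73 (SE 0.38, adjusted p = 0.00566). Tyms, thymidylate synthase, had 9.39, 5.44 and 7.07 normalised CPM after PBS and 10.4, 15.6 and 9.21 after LPS. Its groups overlapped and the test was not passed (log2 0.69, SE 0.32, adjusted p = 0.142). The pooled ratio of Tyms was 1.63 (counting interval 1.07 to 2.52). Uhrf1 (chr17:56303337-56323486), which recruits the maintenance DNA methyltransferase to newly copied DNA, had 3.46, 2.33 and 2.18 normalised CPM after PBS and 16.7, 39.5 and 21.8 after LPS (log2 3.27, SE 0.42, adjusted p = 0.000151). Rrm2 and Uhrf1 had the largest changes of the S phase members that were tested.

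Of the factors that license and fire origins, Cdt1 rose by 1.28 (SE 0.32, adjusted p = 0.0105; 0.0526 without PBS replicate 1, and 0.055 with DESeq2). Cdc6 had no count in any PBS library and 5, 16 and 2 counts after LPS, at least 7.41-fold higher against 3 counts over the PBS group (4.42-fold without LPS replicate 2). Ccne1, cyclin E1, had 2 counts in all PBS libraries and 29 after LPS, a ratio of 15.9 with a 95% counting interval of 4.03 to 138 (8.80 without LPS replicate 2). Counting intervals, here and elsewhere, leave out the spread between libraries.

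All 23 mitosis members were higher in each LPS library than in any PBS library, and the 19 tested rose. Mki67 (chr7:135689784-135716450), the proliferation marker Ki-67 that coats mitotic chromosomes, went from 18.8, 21.7 and 32.1 normalised CPM after PBS to 214, 405 and 124 after LPS (log2 3.38, SE 0.39, adjusted p = 6.84e-05). Top2a (chr11:98992947-99024199), the topoisomerase that untangles sister chromatids, went from 11.9, 6.21 and 11.4 to 127.8, 219 and 62.8 normalised CPM (log2 3.77, SE 0.43, adjusted p = 6.53e-05). For both genes the lowest LPS library was more than 3 times the highest PBS library. Cdk1, the kinase that drives entry into mitosis, had 3.46, 0 and 3.81 normalised CPM after PBS and 25, 27.8 and 12.6 after LPS (log2 3.02, SE 0.50, adjusted p = 0.000879). Its partner Ccnb1, cyclin B1, had 4 counts in all PBS libraries and 55 after LPS, a ratio of 15.1 (counting interval 5.58 to 57.4; log2 3.76, SE 0.70, adjusted p = 0.00205). Ccnb2 and Ube2c, the ubiquitin-conjugating enzyme that works with the anaphase-promoting complex, had the largest fitted changes, 4.61 (SE 0.80) and 4.39 (SE 0.77), on only 3 and 4 PBS counts. The pooled ratio of Ccnb2 was 28.9 (counting interval 9.55 to 143). All PBS counts of Ccnb1 and Ccnb2 were in PBS replicate 3; without it they were at least 12-fold and 16.5-fold higher after LPS against 3 counts over the PBS group, and their fitted changes rose to 7.2 and 7.69, which makes the order of these genes uncertain. Without LPS replicate 2 the ratios of Ccnb2 and Ube2c were 16.3 and 10.8, in place of 28.9 and 24.5.

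Spindle and checkpoint genes rose too. The kinesins Kif11, which pushes spindle poles apart, and Kif23, which acts in the central spindle, changed by 4.12 (SE 0.57, adjusted p = 0.000247) and 3.50 (SE 0.42, adjusted p = 8.95e-05). Cenpe, the motor that brings chromosomes to the metaphase plate, changed by 4.13 (SE 0.51, adjusted p = 0.000102), with 3.46, 0 and 3.81 normalised CPM after PBS and 45.9, 69.7 and 25.1 after LPS. The spindle assembly factors Tpx2 and Hmmr changed by 3.97 and 4.09, the midzone bundler Prc1 by 3.80 and the checkpoint protein Bub1b by 3.12 (SE 0.47 to 0.60). The other tested mitosis members, Ccna2, Bub1, Plk1, Cenpf, Kif20a and Nusap1, changed by 2.48 to 3.63. All 19 mitosis calls were kept in each fit without 1 library that still tested the gene, and so were 6 of the 10 S phase calls.

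**Figure D2:**
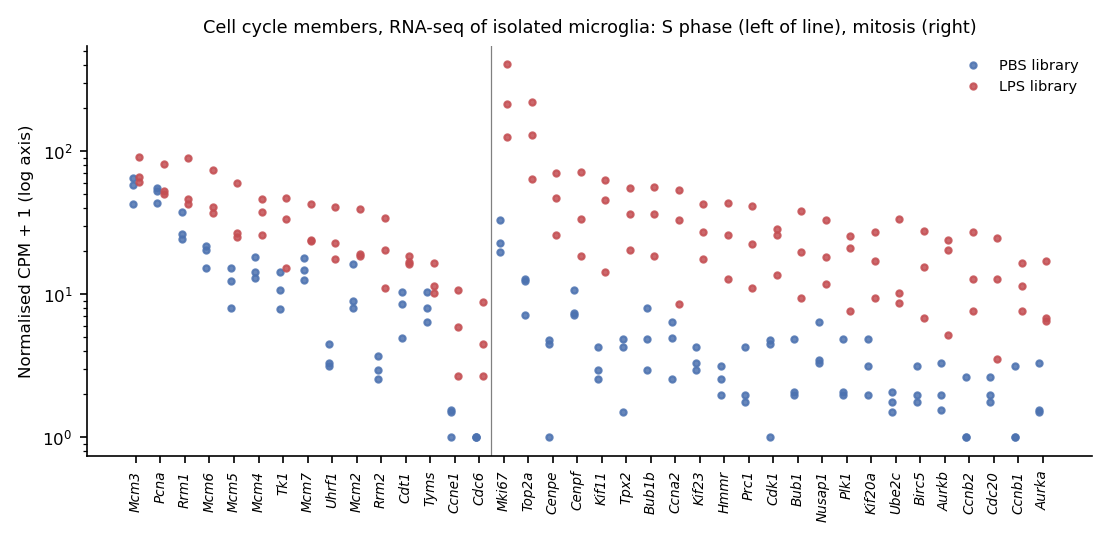
Normalised CPM + 1 (log axis) of each member in the 3 PBS and 3 LPS libraries of isolated microglia, S phase members left and mitosis members right of the line, ordered by LPS mean. The colours separate for every mitosis member, and overlap for Mcm3, Pcna and Tyms among the S phase members.

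In Cx3cr1-Cre PAPERCLIP the same comparison rests on few PBS counts. The 7 members with no count in any PBS library were Cdc6, Mki67, Aurkb, Bub1, Cdc20, Cenpe and Kif20a, and 13 others had 1 to 3 counts in all PBS libraries together. The LPS mean was higher for 37 of 38 members, Mcm7 being the exception, and for 30 of 38 the groups did not overlap (8 of 15 S phase, 22 of 23 mitosis members), against 11.7% of the 5692 genes tested, which include 17 of the 38. edgeR tested 17 members, 12 of which, with all 8 mitosis members, passed the count filter through the LPS libraries alone (no PBS library above 19.7 CPM), so their calls are no independent count. Of the 17, 12 rose (4 of 9 S phase, 8 of 8 mitosis) and none fell or had a negative change, and of the 5 with a PBS library above the filter 1 rose, Mcm2, while 2.74% of all genes tested rose and 0.791% fell (3.53% in all; groups lay apart and lower for 9.63%). Mcm2 was the only tested member with every PBS library above the filter. Taking same-numbered libraries as pairs (a replicate block) gave 14 members and 423 genes in place of 12 and 201; it added Mcm4 (adjusted p = 0.0148) and Mcm6 (adjusted p = 0.0187). LPS replicate 1 was the highest of the 6 libraries for 36 members, the exceptions being Mcm7 and Ccne1, which were highest in a PBS library. Without it the pooled ratio fell by more than 1.5 times for 26 of the 31 members with a PBS count. The count of members called was 4 of 8 tested without it, 11 of 13 without LPS replicate 2 and 6 of 9 without LPS replicate 3, and 2, 2 and 3 of 25 without PBS replicate 1, 2 or 3. With all libraries thinned to the shallowest total, 5 of the 6 members still tested rose, and without replicate 3 of both groups 11 of 17 did.

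Among S phase members, Uhrf1 had 18.9, 4.04 and 9.29 normalised CPM after PBS and 325, 86.9 and 83.9 after LPS (log2 3.94, SE 0.70, adjusted p = 0.0065). Mcm2, at 45.2, 32.3 and 55.7 after PBS and 217, 122 and 83.9 after LPS, changed by 1.65 (SE 0.38, adjusted p = 0.0286). Rrm2 had 2 counts in all PBS libraries and 187 after LPS, a ratio of 31.6 (counting interval 8.63 to 263; adjusted p = 0.0142), and Tk1 had 2 and 236 counts, a ratio of 39.9 (10.9 to 331; adjusted p = 0.00847). The groups of these 4 genes did not overlap. Both PBS counts of Tk1 were in replicate 3, the library with hepatocyte markers, and the liver library had 69.1 CPM of Tk1; without PBS replicate 3, Tk1 was at least 14.6-fold higher against 3 counts over the PBS group. The part of liver RNA in the PBS counts was not tested. Without LPS replicate 1 the ratios of Rrm2 and Tk1 were 14.6 and 19.8. Mcm4, Mcm5 and Mcm6 gave ratios of pooled counts of 2.46, 3.86 and 4.35 with groups apart, though Mcm4 (adjusted p = 0.118) and Mcm6 (adjusted p = 0.0824) missed the threshold without the block and Mcm5 was not tested. Mcm3 (log2 0.75, SE 0.48, adjusted p = 0.482) and Pcna (log2 0.48, SE 0.54, adjusted p = 0.727) overlapped here too. Without LPS replicate 1 the sign of the Pcna change turned, to -0.05.

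Mcm7 was nearly absent from PAPERCLIP, with 4 counts in the PBS and 4 in the LPS libraries and none in the untreated, Gfap-Cre, Gad2-Cre, Camk2a-Cre or liver libraries. The same gene had 11.6 to 41.5 normalised CPM in each microglial RNA-seq library. In the annotation Mcm7 (chr5:138164583-138172111) overlaps Ap4m1 and the microRNA genes Mir106b, Mir25 and Mir93, and how reads in overlaps were assigned was not stated in the labels used here. The part of the overlap in this difference between assays was not tested.

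Among mitosis members, Top2a had 11.3, 8.08 and 9.29 normalised CPM after PBS and 418, 103 and 113 after LPS (log2 4.45, SE 0.70, adjusted p = 0.00287). Birc5, survivin of the chromosomal passenger complex, had 3.77, 4.04 and 9.29 after PBS and 196, 53.7 and 103 after LPS (log2 4.28, SE 0.64, adjusted p = 0.00226). These 2 calls were kept without any 1 library, with adjusted p up to 0.0468 and 0.0408; the other 10 were lost at least once. Cdk1 had 15.1, 8.08 and 12.4 after PBS and 155, 34.8 and 54.7 after LPS (log2 2.79, SE 0.65, adjusted p = 0.0302). Aurka, the kinase of the spindle poles, had 5 PBS and 124 LPS counts (log2 2.94, SE 0.67, adjusted p = 0.0272). The Aurka gene overlaps Cstf1, and how reads in the overlap were assigned was not given. Ccnb1 and Hmmr had 1 PBS count each and 137 and 127 LPS counts, ratios of 46.3 (counting interval 8.17 to 1843) and 42.9 (7.57 to 1709), with adjusted p of 0.00993 and 0.0129. Prc1, with 3 PBS counts, gave a ratio of 17.2 (5.79 to 84.5; adjusted p = 0.0283), and Tpx2 rose with an adjusted p of 0.0295. Without LPS replicate 1 the ratios of Ccnb1, Hmmr and Prc1 were 25.3, 22.4 and 7.85. Without PBS replicate 1, which held the only PBS count of Ccnb1 and Hmmr, these genes were at least 9.56-fold and 8.88-fold higher against 3 counts. These named genes were apart between groups in every case.

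Mki67, the marker most used for dividing cells, had no count in the 3 PBS and 2 untreated libraries and 55, 5 and 13 counts after LPS, at least 7.22-fold higher against 3 counts over the PBS group, which are 3.41 CPM. Bub1, Cenpe, Kif20a and Aurkb, also at 0 after PBS, were at least 8.11-, 8.0-, 8.73- and 4.64-fold higher by the same bound. Without LPS replicate 1 these bounds were 3.30 for Mki67, 4.35 for Bub1, 2.96 for Cenpe, 4.88 for Kif20a and 2.57 for Aurkb. Cdc20, which activates the anaphase-promoting complex and was also at 0 after PBS, had 13, 3 and 3 counts after LPS. By the same bound it was at least 1.97-fold higher, or 1.17-fold without LPS replicate 1. Kif23 was the mitosis member whose groups overlapped, at 7.54, 8.08 and 3.10 normalised CPM after PBS and 68.8, 3.16 and 14.6 after LPS.

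**Figure D3:**
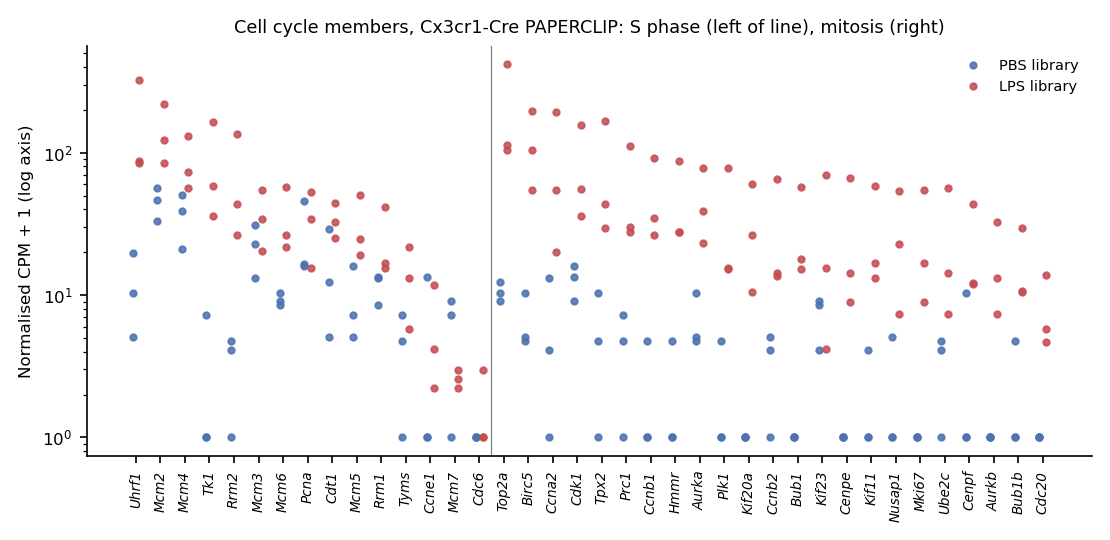
Normalised CPM + 1 (log axis) of each member in the 3 PBS and 3 LPS libraries of Cx3cr1-Cre PAPERCLIP, arranged as for RNA-seq. A point at 1 is a library with no count; LPS replicate 1 is the highest library for all members but Mcm7 and Ccne1.

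Both assays were compared over the same genes. Groups were apart and higher after LPS in both for 30 of 38 members, 8 of 15 in S phase and 22 of 23 in mitosis. Among genes tested in both, 12 of 15 members (80%) were apart and higher in both, against 7.67% of all 5452. The count filter limits this share too. For Mcm3, Pcna and Tyms the groups overlapped in both. Of the 15 members tested in both assays, 10 rose in both, against 2.51% of all genes tested in both, with the limit from the count filter given above: Tk1, Mcm2, Rrm2 and Uhrf1 in S phase and Top2a, Ccnb1, Cdk1, Tpx2, Hmmr and Prc1 in mitosis. The log2 ratios of pooled counts of the 31 members with a PBS count in both assays had a Pearson r of 0.676 and a Spearman rho of 0.617, a description across genes of different depth, with no test. A test of the difference in LPS response over the 12 libraries called none of the 37 members tested (0.00984% of all genes). At an unadjusted p below 0.05 edgeR gave 2 members and DESeq2 gave 2. Those of edgeR were Tk1, whose change was lower in RNA-seq by 3.51 on the log2 scale (SE 1.44, adjusted p = 0.476), and Mcm7, whose change was higher in RNA-seq by 2.50 (SE 1.08, adjusted p = 0.492). The median SE of these differences was 1.68, and a missed threshold does not show that the responses were alike. The Tk1 gene overlaps Afmid.

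**Figure D4:**
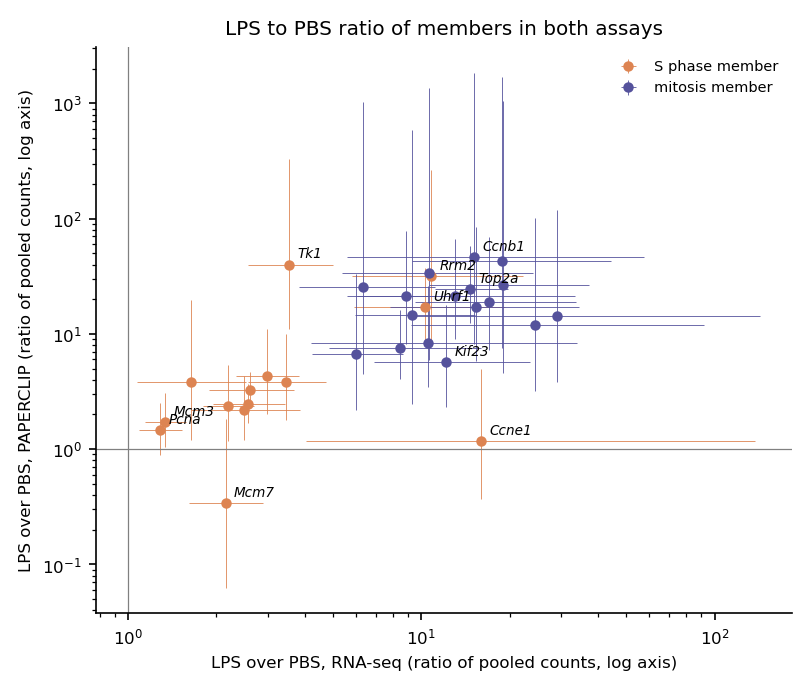
Ratio of pooled LPS to pooled PBS counts, scaled to library size, in RNA-seq (x, log axis) and PAPERCLIP (y, log axis) for the 31 members with a PBS count in both assays. Bars are 95% counting intervals; mitosis members lie at 6.00 or more in RNA-seq and at 5.68 or more in PAPERCLIP, and Mcm7 lies below 1 in PAPERCLIP.

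Other genes of the cycle were followed by lists. In RNA-seq none of the 7 tested G1 cyclins and kinases rose by edgeR or DESeq2 (2 did at an unadjusted p below 0.05), and Ccnd1, cyclin D1, fell by 1.38 (SE 0.15, adjusted p = 3.52e-05), from 140 ± 16.2 to 52.5 ± 10.4 normalised CPM (SD, n = 3 each). Of 7 tested CDK inhibitors and pocket proteins, 3 rose and 1 fell: Cdkn1a (p21) by 1.39 (SE 0.22), Cdkn2d (p19) by 1.41 (SE 0.31) and Rb1 by 0.33 (SE 0.10) rose, and Cdkn1c (p57) fell by 1.32 (SE 0.35). Of 13 tested E2F, MuvB and FoxM1 regulators, 4 rose and 1 fell. E2f8, an E2F that represses its targets, rose by 3.24 (SE 0.53), E2f2 by 1.57 (SE 0.30) and Foxm1 by 2.09 (SE 0.44), while E2f3 fell by 0.93 (SE 0.16). Of 36 other replication genes 19 were tested and 4 rose, among them Lig1, the ligase that joins Okazaki fragments, by 1.59 (SE 0.23). Of 46 other mitotic genes 25 were tested and 22 rose, led by Aspm (log2 4.56, SE 0.51), a spindle pole protein. None of either list fell by edgeR or DESeq2, nor at an unadjusted p below 0.05. These shares of the genes tested stand beside 15.9% of all genes that rose. The count filter limits them too, since a listed gene with no PBS library above it was tested only through its LPS libraries. The list calls above are those of edgeR. DESeq2 called 2 inhibitors and pocket proteins higher in place of 3. It called 3 other replication genes higher in place of 4, and 21 other mitotic genes in place of 22.

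**Figure D5:**
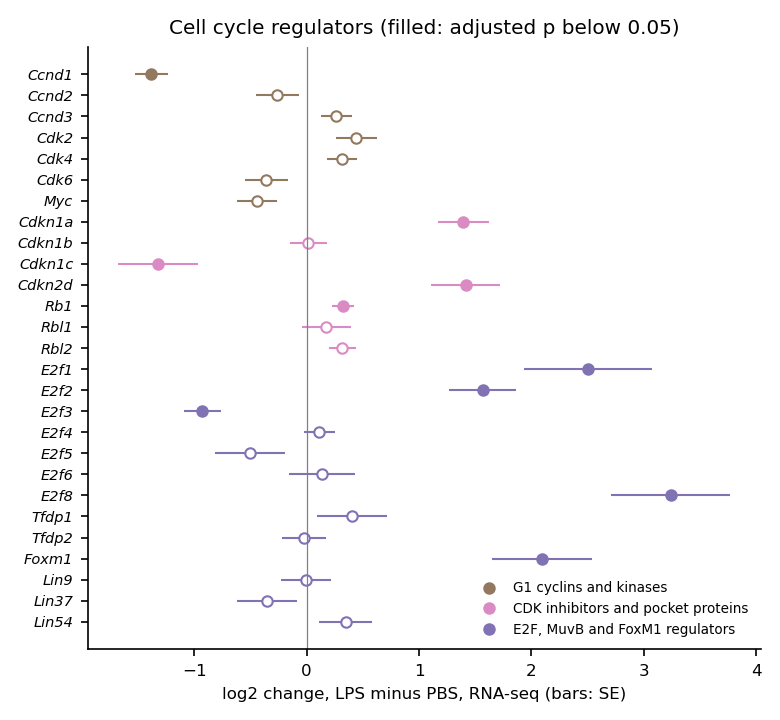
log2 change (LPS minus PBS, with SE) in microglial RNA-seq of the tested G1 cyclins and kinases, CDK inhibitors and pocket proteins, and E2F, MuvB and FoxM1 regulators. Filled points passed an adjusted p of 0.05; Ccnd1, Cdkn1c and E2f3 lie below 0, and E2f8 has the largest change of those shown, 3.24.

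In PAPERCLIP none of 4 tested G1 genes and none of 5 tested E2F and MuvB genes was called by edgeR or DESeq2; at an unadjusted edgeR p below 0.05 these were 2 (1 higher, 1 lower) and 0. Ccnd1 gave a log2 change of -0.50 (SE 0.22, adjusted p = 0.3). Cdkn2c, the CDK inhibitor p18, rose by 1.83 (SE 0.42, adjusted p = 0.0273), 1 of 5 inhibitors and pocket proteins tested. Of 36 other replication genes 13 were tested and 3 rose (Gins2, Asf1b and Tipin). Of 46 other mitotic genes 12 were tested and 6 rose, led by Racgap1, a partner of Kif23 in cytokinesis (log2 2.84, SE 0.56, adjusted p = 0.0111). These shares of the genes tested stand beside 2.74% of all genes that rose and 0.791% that fell, with the same limit from the count filter.

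Markers of other cells moved with LPS in part. In RNA-seq the sum of 11 lymphocyte markers was 16.0 to 23.9 CPM after PBS and 114 to 183 CPM after LPS. Of the 4 tested, 3 rose: Gzma by 4.48 (SE 0.32), Ncr1 by 2.99 (SE 0.37) and Nkg7 by 3.36 (SE 0.67). The T cell markers Cd3e, Cd3g and Cd8a had no count after PBS. After LPS Cd3e had counts in 1 library, Cd8a in 2 and Cd3g in 3, at no more than 2.78 normalised CPM. Cd4, also on the list, had 6.93, 8.77 and 8.56 CPM after PBS and 15.2 CPM in LPS replicate 3. In PAPERCLIP the lymphocyte sum was 15 to 29.6 CPM after PBS and 33.0 to 76.6 CPM after LPS, most of it Cd4. Of 8 monocyte and border macrophage markers 4 rose and 2 fell in RNA-seq, with sums of 636 to 923 CPM after PBS and 615 to 697 CPM after LPS. Plac8 rose in both assays (log2 2.63, SE 0.41 in RNA-seq; 2.68, SE 0.52 in PAPERCLIP), and so did Ms4a7. Neutrophil markers summed to 804 to 930 CPM after LPS in RNA-seq, none of 8 tested was called by edgeR or DESeq2 (2 were higher at an unadjusted p below 0.05), and in PAPERCLIP they were at 0 in all PBS and untreated libraries and at 4.72 to 5.89 CPM after LPS. Of 7 endothelial and mural markers 3 fell in RNA-seq (Pdgfrb by 2.24, Rgs5 by 1.81 and Flt1 by 1.5 on the log2 scale), with sums of 554 to 1206 CPM after PBS and 230 to 528 CPM after LPS. Among markers of other tissues and progenitors, Ttr fell by 1.62 (adjusted p = 0.0106), Nes by 1.27 and Cspg4 by 1.01 in RNA-seq. Vim rose by 1.90 in RNA-seq and by 1.55 in PAPERCLIP. Ttr had 7684, 7146 and 1748 CPM after PBS and 1439, 1846 and 1750 CPM after LPS. PBS replicate 3 thus lay within the LPS range of Ttr. None of 6 astrocyte markers tested in RNA-seq was called by edgeR or DESeq2 (2 were lower at an unadjusted p below 0.05). In RNA-seq DESeq2 called 2 lymphocyte markers higher in place of 3, and 2 endothelial and mural markers lower in place of 3. It called no hepatocyte marker and no oligodendrocyte or precursor marker, so neither Ttr nor Cspg4 passed with it. Of 10 microglia markers 9 fell in RNA-seq and 2 in PAPERCLIP. The part of these cells in the change of the cell cycle members was not tested.

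The 2 untreated Cx3cr1-Cre libraries, the shallowest of this line, had S phase sums of 200 and 135 CPM, overlapping PBS. Their mitosis sums were 96.8 and 89.9 CPM, above every PBS library and below every LPS library. These mitosis sums rest on 15 and 12 counts, with counting intervals of 54.2 to 160 and 46.5 to 157 CPM. The PBS intervals, 38.7 to 103, 26.0 to 83.5 and 50.3 to 113 CPM, overlap them. The order of untreated and PBS mitosis sums is therefore uncertain. Tagged neurons and astrocytes and liver had S phase sums of 130 to 183 CPM and mitosis sums of 20.9 to 100 CPM, the highest in Gfap-Cre replicate 2. That library held 5964 CPM of oligodendrocyte and precursor markers, against 870 CPM in Gfap-Cre replicate 1. Most of the neuronal S phase sums was Ccne1 and Mcm4. In Gad2-Cre they had 86.0 and 37.4 CPM of a mean sum of 160 CPM. In Camk2a-Cre they had 53.0 and 40.3 CPM of 137 CPM. Mki67 had no count in Gad2-Cre, Camk2a-Cre or liver libraries, where 3 counts would be 1.90, 0.781 and 25.9 CPM, and 6 counts in Gfap-Cre. These groups were not tested against the Cx3cr1-Cre groups.

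In Ptbp2-KO cortex, which has no control cortex here, Ptbp2 itself had 36.7, 28.5 and 26.3 CPM; counts per gene do not show whether these reads cover the deleted part. Embryonic neuron markers (2576 to 2730 CPM, led by Dcx) and progenitor markers (350 to 413 CPM, led by Vim and Nes) were present. All 38 members had counts in all 3 libraries, with means of 3.45 to 118 CPM: Top2a had 118 ± 5.47 CPM and Mki67 106 ± 11.2 CPM (SD, n = 3). The S phase sum was 402, 386 and 366 CPM and the mitosis sum 591, 539 and 531 CPM; the coefficient of variation of a member was 0.418% for Nusap1 to 25.2% for Mcm2. Replicate 3, the shallowest library, was the lowest for 27 of 38 members, and the share over all genes was not counted. Replicate 3 stood apart as a whole library. Its chi-square per degree of freedom was 75.5 and 76.9 against replicates 1 and 2, which gave 6.67 between them. It had 37123 genes with a count, against 29970 and 30850. Mcm7 had 57.0 ± 0.94 CPM (SD, n = 3) in this tissue.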

How the data were processed

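The authors deposited whole-number counts per gene for each library, without normalisation. Per the submitters' processing notes, PAPERCLIP reads went through cutadapt and Novoalign, RNA-seq reads through STAR, on mm10; versions, gene assignment, strand use and barcode collapse: not given in the sources used here, so overlapping genes are uncertain. Per the labels' protocols, microglial RNA was enriched for polyadenylated RNA, and ribosomal RNA was removed from cortex RNA. Members and lists were chosen with earlier results of these data known. Symbols were joined to Ensembl identifiers (46488 of 47069 matched; 694 older symbols updated).

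Each LPS comparison was fitted on its 6 libraries over all genes with edgeR 4.0.16 (R 4.3.3): filterByExpr, TMM, quasi-likelihood test, Benjamini-Hochberg adjustment, threshold 0.05. All adjusted p come from it unless DESeq2 1.42.0 is named. Normalised CPM use TMM-scaled totals, sums plain totals; SE is of the log2 change. The difference in response used 4 group means of 12 libraries. Ratios pool counts with 95% exact intervals; groups with no count were set at 3 counts. The scripts were tested on simulated data. Labels name biological replicates only for the knockout cortex, so p-values measure spread between libraries, which may be technical; chi-square per degree of freedom between replicates was 2.10 to 76.9, none within sampling noise. Same-numbered PAPERCLIP libraries deviated together (r = 0.130, 0.240 and 0.188), a pairing that is read from the data. Their other pairings lay below 0, which is partly fixed because deviations were taken from the mean of each group. Same-numbered RNA-seq libraries gave 0.114, 0.0977 and 0.192, with other pairings from -0.169 to 0.108. Full values were given for the 12 smallest adjusted p per comparison and for Mki67, Top2a, Ccnb1, Cdk1, Mcm2 to Mcm7 and Pcna, others by range; of each pathway list at most 3 genes a direction. Alternatives were other scalings, DESeq2, other filters, a replicate block, thinned libraries and leaving libraries out.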

Additional observations from a re-analysis of the deposited data

Results flagged for a closer look

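Some members had counts in PAPERCLIP of other cell types above those of every Cx3cr1-Cre PBS library, outside the LPS comparisons. Ccne1 stood at a mean of 86.0 CPM in Gad2-Cre (82.5 and 89.4; 137 counts) and 53.0 CPM in Camk2a-Cre cortex (49.6 and 56.3; 204 counts), where the highest PBS library had 11.8 CPM. In Gfap-Cre cortex Rrm2 had a mean of 22.8 CPM (18.7 and 26.9, against 3.62 CPM in the highest PBS library). Mcm4 had a mean of 56.6 CPM there (47.45 and 65.72, against 47.37 CPM). The lower Gfap-Cre library was thus nearly level with the highest PBS library for Mcm4. The 2 untreated Cx3cr1-Cre libraries reached 58.1 CPM for Mcm4 and 19.4 CPM for Rrm2, within the range of the Gfap-Cre values, and had no count of Ccne1. With 2 libraries a group these differences were not tested.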

How the results depend on the processing

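Of the member values in RNA-seq, 215 of 217 under other settings kept direction and side of the threshold (Mcm3 passed with no filter, Cdt1 did not with DESeq2), and 210 of 221 with libraries left out. In PAPERCLIP these were 102 of 108 and 64 of 96, with 31 calls lost and the Pcna change ranging from -0.0481 (without LPS replicate 1, the turn in sign) to 1.143 (without PBS replicate 2). RNA-seq gene calls were 1781 with DESeq2 (2706 with edgeR). Scaling by total counts moved the median of all genes from -0.02 to -0.13 and the split from 1634 higher and 1072 lower to 1282 and 1641; the same number of members, 29, rose. Thinned libraries gave 12 mitosis members in RNA-seq, since fewer were tested, and 5 members in PAPERCLIP, 2 of S phase and 3 of mitosis. With no filter PAPERCLIP gave 632 genes and 29 members, 7 of S phase and 22 of mitosis. The replicate block gave 2770 genes and 29 members in RNA-seq, where numbers were not taken to pair libraries, and 423 genes and 14 members in PAPERCLIP; it changed no other member call. The difference test gave 1 gene, 87 with DESeq2, 9 with no filter and 57 with the block, and no member under any of these. Leaving libraries out gave 1845 to 3552 genes and 23 to 33 members in RNA-seq (S phase 6 to 10, or 11 without replicate 3 of both groups, mitosis 16 to 22), 74 to 167 genes and 2 to 11 members in PAPERCLIP (S phase 0 to 4, mitosis 2 to 7), 1 to 37 genes and 0 members for the difference, and cortex sums of 376 to 394 CPM (S phase) and 535 to 565 CPM (mitosis). The cause was not tested. In PAPERCLIP, 20 of 38 members had at most 3 PBS counts.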
